A study of Mus musculus with 2 samples.

Results

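Tia1 crosslink sites in the exons of pseudogenes were taken from the pooled list of significant sites, and 1768 of its 422150 sites (0.419%) met the rule. A site was kept when it lay on the strand of an exon of a gene annotated as any kind of pseudogene in GENCODE release M21 (GRCm38) and in no exon of a protein-coding gene on that strand. These sites held 2887 of 867271 pooled cDNAs and fell in 315 of the 13523 annotated pseudogenes (2.33%). A further 62 pseudogene exon sites shared a protein-coding exon and were left out.

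The data came from splenic B cells of C57BL/6 mice, which were stimulated in culture for 48 h by lipopolysaccharide (LPS, 10 µg/ml) before cytoplasmic extracts were made. They were examined by iCLIP, which fixes protein to RNA with UV light, purifies the complexes with an antibody and reads bound positions to the nucleotide, because reverse transcription halts next to the protein, so that a cDNA begins at the next position 3′ of the crosslinked nucleotide. Both samples belonged to 1 group, described by the study as independent experiments (n = 2), with no control immunoprecipitation analysed here, so no test over samples was possible and background binding was not measured. The titles name Tia1, an RNA-binding protein of stress granules, while the antibody field names Tial1, and the UV dose and RNase concentration also differ between the labels and the methods.

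Pseudogenes are copies of genes that have lost the ability to make the original protein. Processed pseudogenes arose when a spliced mRNA was reverse transcribed and inserted into the genome, so they carry the exons of their parent joined together and no introns. Unprocessed pseudogenes arose by duplication of a stretch of DNA. Ribosomal protein genes and other genes of high activity in the germ line are known for many processed copies, and some pseudogenes are themselves transcribed.

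The sequences that carry most of these cDNAs are those of processed pseudogenes at the junctions of parent exons. For 6 pseudogenes with many cDNAs, 30 nt are shown from the crosslinked nucleotide onward at the highest site (RefSeq genome, GRCm38, DNA letters along the transcript), and capitals mark the part that lies in the next exon of the parent. The window of each was identical to the spliced mRNA of its parent over the length of a read and was found at no other place in the genome.
Gm4204: tttttgctcctcctgaagTTCCTGAGAATG
Rpl36a-ps2: ttgtatgcccaggGAAAGCGGCGTTACGAC
Gm14303: taagTTGGACTAAGCGACCTTGAATGGATT
Gm8730: tttctggagGGTGTCCGCAACGTGGCCAGT
Gm9892: ttattggcagaattgggtacaagTGGTTCT
Ptges3-ps: ctttttcattgtatcgatccaaatGATTCC
The windows lay at chr1:135233034-135233063 (Gm4204, plus strand), chr3:145879116-145879145 (Rpl36a-ps2, plus strand), chr2:172509504-172509533 (Gm14303, minus strand), chr8:102865127-102865156 (Gm8730, minus strand), chr8:52196316-52196345 (Gm9892, minus strand) and chr6:85844142-85844171 (Ptges3-ps, plus strand). In the order given, the parents were Nap1l1 on chromosome 10, Rpl36a on chromosome X, Rps29 on chromosome 12, Rplp0 on chromosome 5, Eif2s2 on chromosome 2 and Ptges3 on chromosome 10. The next parent exon began 4 nt after the crosslink in Gm14303, 9 nt in Gm8730, 13 nt in Rpl36a-ps2, 18 nt in Gm4204, 23 nt in Gm9892 and 24 nt in Ptges3-ps. At all 6 matching parent nucleotides, the pooled list held 0 cDNAs.

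Sites in pseudogene exons took 2105 of 632247 cDNAs in replicate 1 (0.333%, exact 95% interval 0.319% to 0.347%) and 344 of 163577 in replicate 2 (0.210%, 0.189% to 0.234%). All intervals here are exact (Clopper-Pearson) and cover counting error only. The mean share was 0.272% ± 0.0867 (SD, n = 2), and the share was 1.58 times higher in replicate 1. The share in coding sequence was also higher in replicate 1 (6.47% against 3.26%, a ratio of 1.99), whereas that in 3′UTRs was not (79.4% and 81.5%, a ratio of 0.973). The part of the coding share and of depth in the lower pseudogene share of replicate 2 was not tested. The remaining 438 pooled cDNAs were counted in neither replicate's own list, and 302 of the member sites were in neither list. All replicate counts here come from each replicate's own list of significant sites. A count of 0 thus means that the site was not listed, not that the replicate had no cDNA there. B cell marker genes all had cDNAs (8 of 8, with 5423 in replicate 1 and 1344 in replicate 2), whereas T cell markers had 14 and 0, myeloid markers 29 and 6, and erythroid markers 25 and 3, with Cd3d, Cd3g, Cd4, Cd8a, Csf1r, Cd14, S100a8, Hbb-bs and Hba-a1 at 0.

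Most sites in pseudogene exons were thin. A single pooled cDNA made up 1250 of the 1768 sites (70.7%, against 64.4% of all pooled sites), and the highest site held 25. The lists of both replicates held 125 member sites (7.07%, 5.92% to 8.37%), where 13.7% of all pooled sites were in both. That share was closer to those of coding sequence (5.06%) and introns (5.53%) than to that of 3′UTRs (15.3%). Over whole pseudogenes, 62 had listed cDNAs in both replicates, 190 in the list of replicate 1 alone, 12 in that of replicate 2 alone and 51 in the pooled list alone.

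Processed pseudogenes dominated. They held 2326 of the 2887 cDNAs (80.6%) at 1390 sites in 267 genes, with 1731 cDNAs in replicate 1 and 268 in replicate 2. Transcribed processed pseudogenes, for which the annotation records a transcript, added 192 cDNAs (122 and 27) in 28 genes. Transcribed unprocessed pseudogenes held 170 cDNAs (109 and 26) in 11 genes, and unprocessed pseudogenes without that record 147 (106 and 16) in 6. The other cDNAs lay in 2 polymorphic pseudogenes, which are disabled in the reference strain but not in every strain (29 cDNAs), and in a gene with no further type (23 cDNAs). No site was found in the other 9 of the 15 pseudogene types annotated. The share of each type among all annotated pseudogenes or their exon length was not computed. These values thus do not show whether a type held more than its part.

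Each site was then sorted by where else its read could have come from, using the 43 nt that follow the crosslink. The reads had 50 bases of which 7 were barcode, so 43 nt is the longest read. By the methods, adaptors were trimmed and read length varied. Shorter windows matched other places more often, as given in the last section, but the classes were not sorted again for them. The classes are called here copy, spliced, near and distinct, and every site was placed in the first that applied. In the copy class the window had another identical place in the genome, and this class held 177 cDNAs (6.13%). In the spliced class it was unique in the genome but identical to a spliced protein-coding mRNA, and this was the largest class with 1182 cDNAs (40.9%) at 673 sites of 152 pseudogenes. In the near class a place with 1 or 2 mismatches and no gap was found elsewhere in the genome or in a spliced mRNA (1043 cDNAs, 36.1%). The distinct class had no such place, and held 485 cDNAs (16.8%) at 341 sites of 71 pseudogenes.

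The order of the classes was the same in both replicates. The spliced class held 43.1% of cDNAs in replicate 1 (41.0% to 45.3%) and 39.2% in replicate 2 (34.1% to 44.6%), and the near class 35.5% and 31.98%. The distinct class held 15.3% (13.8% to 16.9%) and 20.1% (15.95% to 24.7%), and the copy class 6.03% and 8.72%. In each class the intervals of both replicates overlapped. By comparison, another identical genomic place was found for 3.85% of sites in pseudogene exons, 0.320% of 3′UTR sites, 0.247% of coding sites and 3.91% of intergenic sites.

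**Figure D1:**
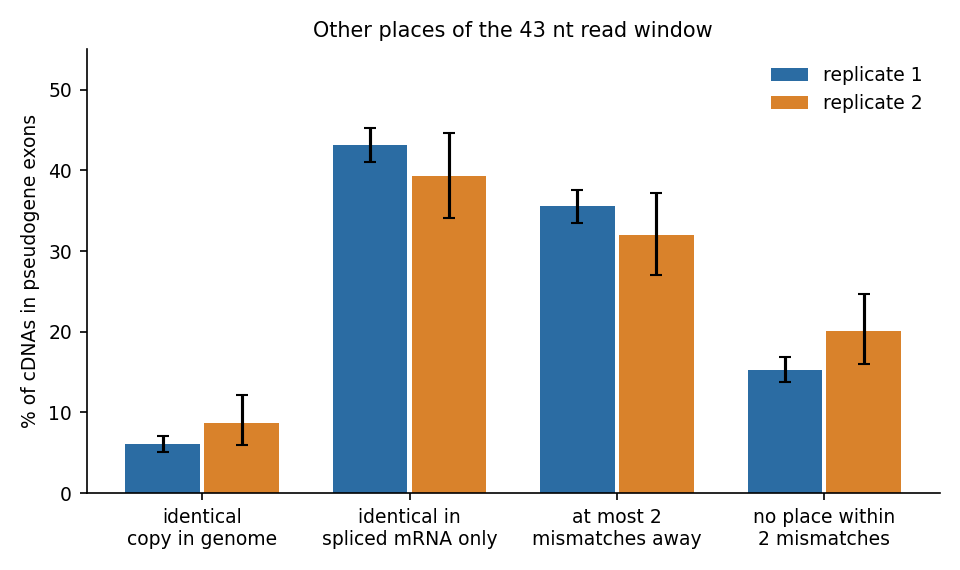
Percent of the cDNAs in pseudogene exons (y axis) by the class of the 43 nt read window (x axis), in replicate 1 (blue) and replicate 2 (orange); bars are shares and lines exact 95% intervals of counting error. The spliced class, identical to a spliced mRNA but to no other genomic place, is the highest in both replicates (43.1% and 39.2%).

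A parent was sought for each pseudogene as the protein-coding transcript with the best alignment in sense direction over at least 50% of the exon length. Of the 315 pseudogenes, 298 had one, with 267 different parent genes and 94.0% of the cDNAs. Identity to the parent had a median of 96.0% and ran from 66.5% to 100%, and 18 pseudogenes were identical over the aligned part. Of the aligned cDNAs, 94.3% lay opposite parent coding sequence, 5.25% opposite the 3′UTR and 0.447% opposite the 5′UTR. All aligned exon positions were spread in a like way (95.8%, 3.37% and 0.872%), so the annotated exons of these pseudogenes cover mainly copies of coding sequence.

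Sites were concentrated just before the places where parent exons are joined. Of 1626 sites that could be aligned, 1282 (78.8%, 76.8% to 80.8%) had the start of the parent's next exon within the 43 nt after the crosslink, compared with 25.9% of the 314947 aligned exon positions. By cDNAs the share was 79.9% in replicate 1 (78.1% to 81.7%) and 70.4% in replicate 2 (65.0% to 75.4%). The limit of the pattern was narrow on both sides. Only 1 site lay directly before the next exon (0.0615% of sites, against 0.640% of positions), where a read would lie wholly in that exon, whereas 291 sites lay 2 to 10 nt before it and 424 sites 11 to 20 nt before it. Where a next exon began beyond the longest read, sites were rare, with 31 sites at 44 to 60 nt (1.91%, against 9.75% of positions) and 7 at 61 to 100 nt (0.431%, against 18.7%). A further 288 sites (17.7%, against 21.6% of positions) had no parent exon ahead, and these held 16.4% of the aligned cDNAs of replicate 1 and 26.8% of those of replicate 2.

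**Figure D2:**
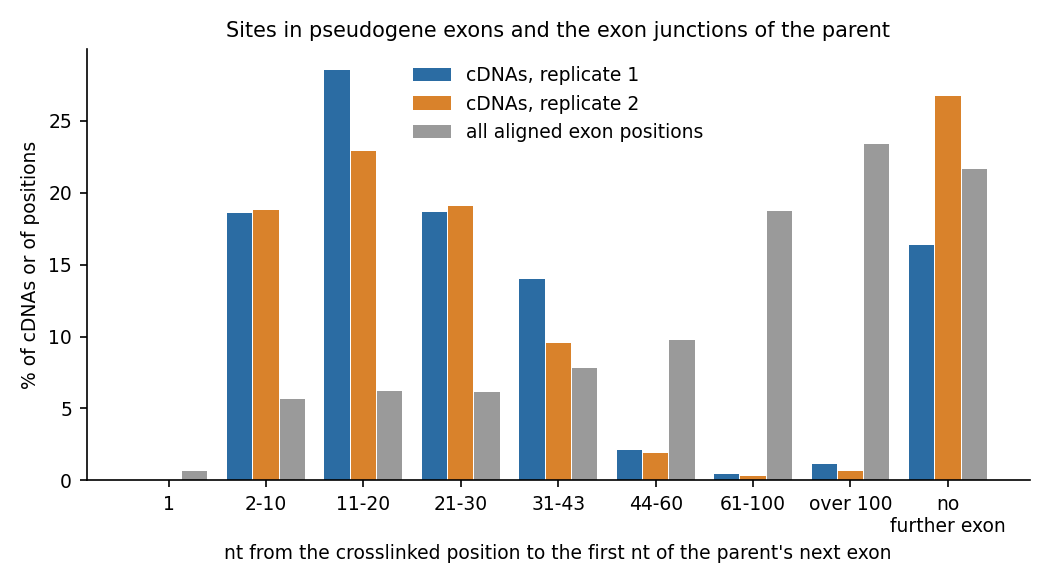
Percent of aligned cDNAs of each replicate, or of all aligned exon positions (grey), on the y axis, by the distance in nt from the position to the first nucleotide of the parent's next exon on the x axis. Among the bins with a next exon, which differ in width, both replicates are highest at 11 to 20 nt (28.6% and 22.9%, against 6.21% of positions). They fall to 2.12% and 1.91% at 44 to 60 nt. The bin with no further exon holds 16.4% and 26.8%, so it is the highest of all in replicate 2.

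In the spliced class this followed from its definition (98.0% of aligned cDNAs), the exceptions being sites of Gm4540 and Rps13-ps2. The near class, which was not defined by a junction, had 78.4% of its aligned cDNAs within 43 nt of one (75.7% to 81.0%). The share was 41.0% in the distinct class (35.8% to 46.3%) and 21.8% in the copy class (15.9% to 28.7%). The copy class needs a second unbroken place in the genome, which a parent gene cannot give across its own junction. Its low share is thus partly set by its definition. Among processed pseudogenes alone, 1270 of 1441 aligned sites had such a junction (88.1%), against 28.7% of their aligned positions. The share of sites was above the share of positions in 255 of the 283 processed pseudogenes with an aligned site and below it in 24. The sites of 1 pseudogene are not independent, and no test was run.

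The parents showed the opposite. The methods describe mapping of the reads to the genome with Bowtie and name no step for reads across exon junctions. Both patterns depend on such a step. The parents were compared by the same measure. Their own coding sequences held 3295 sites in 272 transcripts, and 9.86% of these had a junction within 43 nt downstream, against 27.3% of coding positions. Only 83 of the 1626 aligned pseudogene sites (5.10%) had a cDNA at the matching nucleotide of the parent, and 174 (10.7%) had one within 5 nt. Where the window is identical in the spliced parent mRNA, a cDNA from the parent and one from the pseudogene cannot be told apart from these files.

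The cDNAs were spread over many pseudogenes, with a median of 5 pooled cDNAs each and 27.4% of the total on the 10 highest. Gm4204, a processed copy of the histone chaperone gene Nap1l1 (99.5% identity), had 100 cDNAs in replicate 1 and 18 in replicate 2, at 46 sites of which 45 had a parent junction within 43 nt. Of its 124 pooled cDNAs, 123 were of the spliced class. Its highest site held 10 cDNAs in replicate 1 and 2 in replicate 2, while the whole of the Nap1l1 exons held 210 pooled cDNAs. Gm8276, a copy of the poly(A)-binding protein gene Pabpc1 at 92.4% identity, had 97 and 9 cDNAs, of which 86 pooled cDNAs were near and 23 spliced, with a junction at 60 of 62 sites. Pabpc1 itself held 1059 pooled cDNAs. These counts are not scaled to depth, and replicate 2 held 20.6% of the cDNAs of both replicates over all sites. Its part was below that at 9 of the 15 highest pseudogenes, Gm4204 (15.3%) and Gm8276 (8.49%) among them, and above it at the other 6.

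**Figure D3:**
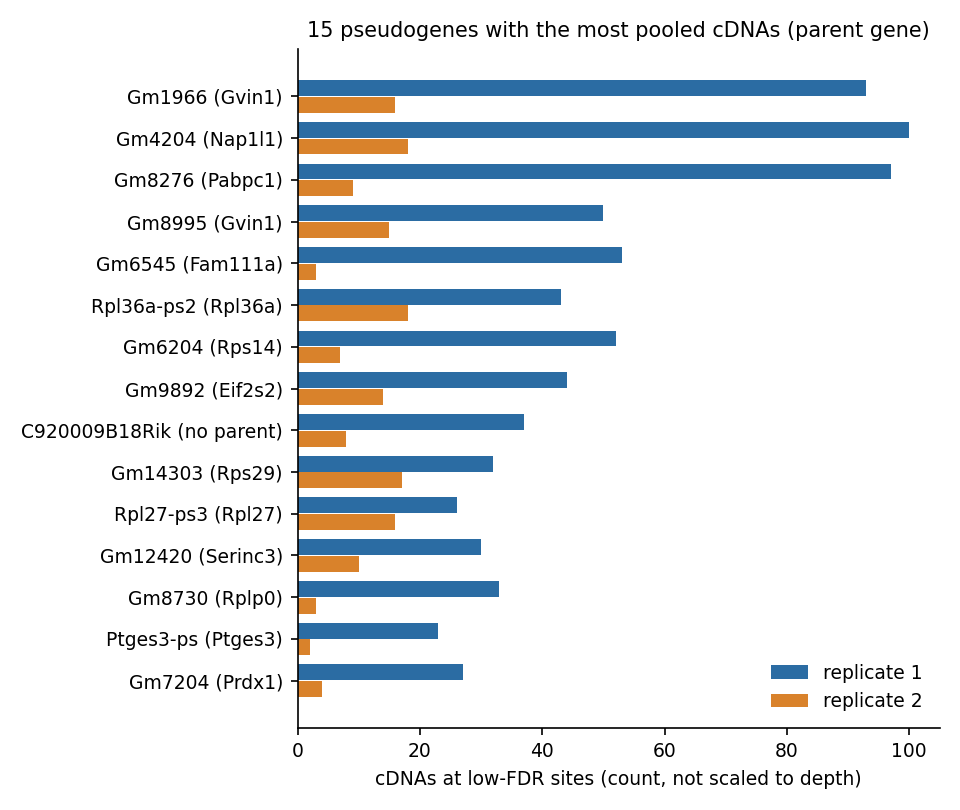
cDNAs at sites in pseudogene exons (x axis, counts not scaled to depth) in replicate 1 (blue) and replicate 2 (orange) for the 15 pseudogenes with the most pooled cDNAs, with the parent gene in brackets. Gm4204 has 100 and 18 cDNAs and Gm6545 53 and 3, so that the balance between replicates differs from gene to gene.

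Ribosomal proteins formed the largest parent family by cDNAs, and the share of their copies among all annotated pseudogenes was not computed. Their 39 pseudogenes came from 33 of the 84 cytosolic ribosomal protein genes and held 520 cDNAs (18.01%), 386 in replicate 1 and 93 in replicate 2. By class, 343 of these were spliced, 104 copy, 59 near and 14 distinct. For 12 of the pseudogenes the parent gene held 0 pooled cDNAs in its exons, and the pseudogenes held 160 (107 and 44). Over all 267 parent genes, 34 held 0. Since the methods name mapping to the genome and no step across parent junctions, a parent at 0 here is not shown to lack crosslinks. Over the family, 17 of 39 pseudogenes held more cDNAs than their parent, whereas over all 298 pseudogenes with a parent 53 did.

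Rpl36a-ps2 was the highest of them. It lies within the gene Ddah1 on the same strand, is identical to the mRNA of Rpl36a, a protein of the large ribosomal subunit, and had 43 cDNAs in replicate 1 and 18 in replicate 2. Its highest site, printed above, held 7 and 6, and the Rpl36a exons held 0. Gm14303, identical to the small subunit gene Rps29, had 32 and 17 cDNAs at only 7 sites, all of them before a junction, and the Rps29 exons also held 0. At its highest site 11 and 6 cDNAs were found, and 5 of its 7 sites had both replicates. Gm6204 (parent Rps14) had 52 and 7 cDNAs and Gm8730 (parent Rplp0, a stalk protein of the ribosome) 33 and 3, with 16 pooled cDNAs at the highest Gm8730 site. Replicate 2 thus made up a larger part at Rpl36a-ps2 and Gm14303 than at Gm6204 and Gm8730.

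A pair of ribosomal protein pseudogenes belonged to the copy class instead. Rpl27-ps3 had 26 and 16 cDNAs at 3 adjacent nucleotides, 2 to 4 nt before the end of its exon, and all 42 pooled cDNAs had another identical genomic place. The matching nucleotides of Rpl27 held 8 cDNAs. Gm15500, the transcribed processed pseudogene with the most cDNAs (24 and 5), is identical to Rpl5 and had all 8 sites within 8 nt, 26 to 33 nt before the exon end. Of its 29 pooled cDNAs, 24 were copy and 5 near. Both had no site within 43 nt of a parent junction, which the definition of the copy class favours.

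Other families were grouped by the first letters of the parent symbol, which need not mean related genes. The next by cDNAs were Gvin (212 cDNAs), Pabpc (139 in 3 pseudogenes), Nap (124 in 1) and translation initiation factors (Eif, 114 in 12). Below them were Fam (70 in 1), heterogeneous nuclear ribonucleoproteins (Hnrnp, 47 in 5) and Ddx helicases (44 in 3). A junction lay within 43 nt of 94.7% of aligned sites in the Pabpc family, 97.8% in Nap and 96.97% in Eif. The share was 96.8% in Hnrnp, 100% in Ddx and 0% in Gvin and Fam. In the ribosomal protein family it was 77.3% (160 of 207 aligned sites). At the highest sites of Gm1966 and Gm8995 (Gvin) and of Gm6545 (Fam), the parent had no further exon ahead. A junction was not possible there, and the shares of all aligned positions were not compared by family. In the Eif family Gm9892, a copy of Eif2s2, the gene of a subunit of the factor that brings the initiator tRNA, had 44 and 14 cDNAs, all of the spliced class, at 22 sites of which 8 had both replicates. Ptges3-ps, from the co-chaperone gene Ptges3, had 23 and 2 cDNAs, of which 32 of 35 pooled were spliced. Gm7204, from the peroxiredoxin gene Prdx1, had 27 and 4, with 29 pooled cDNAs near, and Gm3608, from the actin capping gene Capza1, had 19 and 3.

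A smaller set of pseudogenes carried cDNAs whose window set them apart from every other place by more than 2 mismatches. For 5 of them the pseudogene and the parent are shown over 29 nt centred on the crosslinked nucleotide of the highest site, with capitals at the bases that differ. The same comparisons for Gm1821 and Gm11892 are not printed and are described below.
Gm1966: caAagcaaacttatttttgctcagccagg
Gvin1: caGagcaaacttatttttgctcagccagg
Gm8995: aaagaaagaCCatttTtttatTagtttta
Gvin1: aaagaaagaTGatttCtttatGagtttta
Gm6545: TacctgctttgtttttaCagGgCtgtaca
Fam111a: CacctgctttgtttttaAagAgTtgtaca
Gm12420: CAaCtatctttgttAtctgccttatatat
Serinc3: TGaTtatctttgttTtctgccttatatat
Gm20257: ttttagGatttcttttgTttttTaGGtta
Casp8: ttttagAatttcttttgCttttGaATtta
The pseudogene windows were chr7:106603151-106603179 (Gm1966, minus strand), chr7:106505434-106505462 (Gm8995, minus strand), chr19:12529434-12529462 (Gm6545, minus strand), chr4:84698573-84698601 (Gm12420, plus strand) and chr1:58655145-58655173 (Gm20257, plus strand). The printed window of Gm1966 differed from Gvin1 at 1 of 29 bases, and its highest site was of the near class. The printed windows of Gm8995, Gm6545 and Gm12420 differed from their parents at 4 bases and that of Gm20257 at 5. These are not the read windows used for the classes, which lie after the crosslink and reach further. In Gm12420 no differing base lay after the crosslinked nucleotide, so the printed bases do not show why its read window was distinct. 

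Gvin1 encodes a very large GTPase of the interferon-induced family, and its pseudogenes lie on the same chromosome, 7. Gm1966, an unprocessed pseudogene, had the most pooled cDNAs of any, with 93 in replicate 1 and 16 in replicate 2 at 98 sites, and 2 sites with both replicates. Of its 131 pooled cDNAs, 72 were near, 58 distinct and 1 copy. Gm8995, the transcribed unprocessed pseudogene with the most cDNAs, had 50 and 15 at 48 sites, of which 7 had both replicates, with 40 near and 38 distinct. Another copy, Gm4759, had 3 and 0. Gvin1 itself held 15 pooled cDNAs, fewer than either Gm1966 or Gm8995, to which it is 92.9% and 91.8% identical, and none of their aligned sites had a parent junction within 43 nt. Sites lay toward the 3′ end in both, with 50 of 98 sites of Gm1966 (66 cDNAs) and 36 of 48 sites of Gm8995 (59 cDNAs) in the last 20% of the exon length.

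Gm6545 is annotated as a processed pseudogene, aligned best to Fam111a, the gene of a serine protease, at only 73.2% identity, and lies within the non-coding gene A330040F15Rik on the same strand. All 70 of its pooled cDNAs were distinct, with 53 in replicate 1 and 3 in replicate 2 at 52 sites, and none of 47 aligned sites had a parent junction within 43 nt. Only 1 site had both replicates. In the last 20% of its length lay 34 of the 52 sites.

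Gm12420, a copy of the membrane protein gene Serinc3 at 90.3% identity, held the highest site of all, with 19 cDNAs in replicate 1 and 6 in replicate 2. A group of 9 distinct sites within 16 nt held 28 and 10 of its 30 and 10 cDNAs. All 11 of its sites had a parent junction within 43 nt, unlike those of Gm1966, Gm8995 and Gm6545. At the highest site of each of the latter, the parent had no further exon ahead, so this contrast may reflect parent gene structure and was not tested. Serinc3 held 2147 pooled cDNAs, of which 23 were at matching nucleotides. Gm11892, a copy of the tubulin gene Tubb5, had 4 and 4 cDNAs at 2 distinct sites, both with a junction within 43 nt. In the 29 nt centred on its highest site, not printed, 10 bases differed from Tubb5. Most of them lay where the same bases were shifted in position. The mismatch search allowed no gaps, so a distinct site can be close to its parent apart from such a shift. In Gm12420 and Gm11892 the distinct class, by this ungapped measure, and the junction pattern thus occurred together.

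The other pseudogenes with the most distinct cDNAs carried an annotated transcript or lay within one. C920009B18Rik, a transcribed unprocessed pseudogene with no parent by the rule used, lies within Raet1e, the gene of a ligand of an activating receptor of natural killer cells, and had 37 and 8 cDNAs, with 31 pooled cDNAs distinct and 19 near. Its sites lay between 11.2% and 61.5% of the exon length and none in the last 20%. Atp10d encodes a lipid flippase and is known to carry a premature stop in this strain background, hence its annotation as polymorphic. It had 14 and 4 cDNAs, all 24 pooled cDNAs distinct, of which 17 lay after the last coding nucleotide and 7 in annotated coding sequence. Magef1, of the MAGE family, had 11 and 2 cDNAs, all distinct, between 66.3% and 96.1% of the exon length. Gm20257, a copy of the caspase gene Casp8, had 7 and 0, and Gm1821, with the parent Gm8797, had 6 and 3. The highest site of Gm1821 was distinct, yet the 29 nt centred on it, not printed, were identical to Gm8797. Those bases thus do not show why its read window was distinct.

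**Figure D4:**
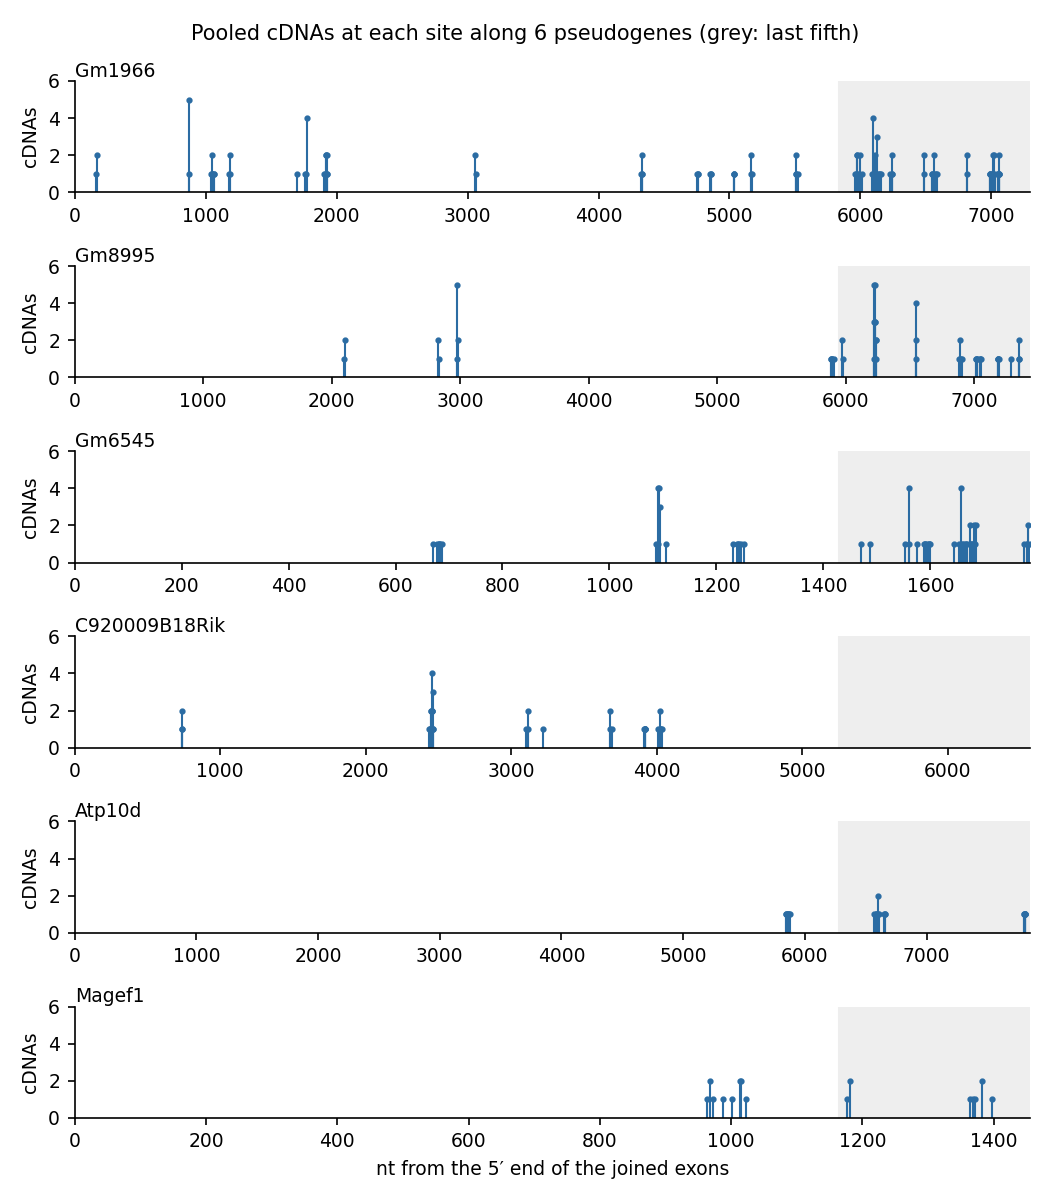
Pooled cDNAs at each site (y axis) by distance in nt from the 5′ end of the joined exons (x axis) in 6 pseudogenes with many distinct cDNAs; the grey band is the last 20% of the length. Sites gather in the band in Gm8995 (36 of 48) and Gm6545 (34 of 52) and are absent from it in C920009B18Rik.

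Some sites lay inside other genes on the same strand. Among the members, 159 (8.99%, 295 cDNAs) in 29 pseudogenes lay inside a protein-coding gene, outside its exons, and 75 (104 cDNAs) in 6 pseudogenes inside a non-coding gene. Within 5 kb downstream of a protein-coding gene lay 15 sites (23 cDNAs). For these cDNAs, an unspliced or extended transcript of the surrounding gene and a transcript of the pseudogene cannot be told apart.

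Tia1 is known to bind U-rich RNA, and the surroundings of sites in pseudogene exons were richer in U than the exons as a whole. This was not compared with a control immunoprecipitation or with sites outside pseudogene exons. In the 31 nt centred on a site, U made up 34.0% in replicate 1 and 37.4% in replicate 2, compared with 24.0% and 24.1% over all positions of the same exons. The crosslinked nucleotide was U at 65.4% and 75.6% of sites. A run of 5 U (UUUUU, on the sense strand) was found in the window of 19.5% and 32.9% of sites, against 3.28% of all windows of that length in these exons. The enrichment was present in every class. U made up 32.1% and 34.4% around spliced sites, 33.5% and 37.1% around near sites, 32.9% and 36.7% around copy sites, and 40.0% and 43.1% around distinct sites, whose exons held 25.7% and 26.2%. U content was thus highest around distinct sites in both replicates, and no test of this order was run. The other measures kept this order in replicate 1 only. In replicate 2, copy sites (13 sites) were highest, with a run of 5 U at 53.8% and a crosslinked U at 84.6%. Distinct sites had 47.1% and 78.4% there.

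**Figure D5:**
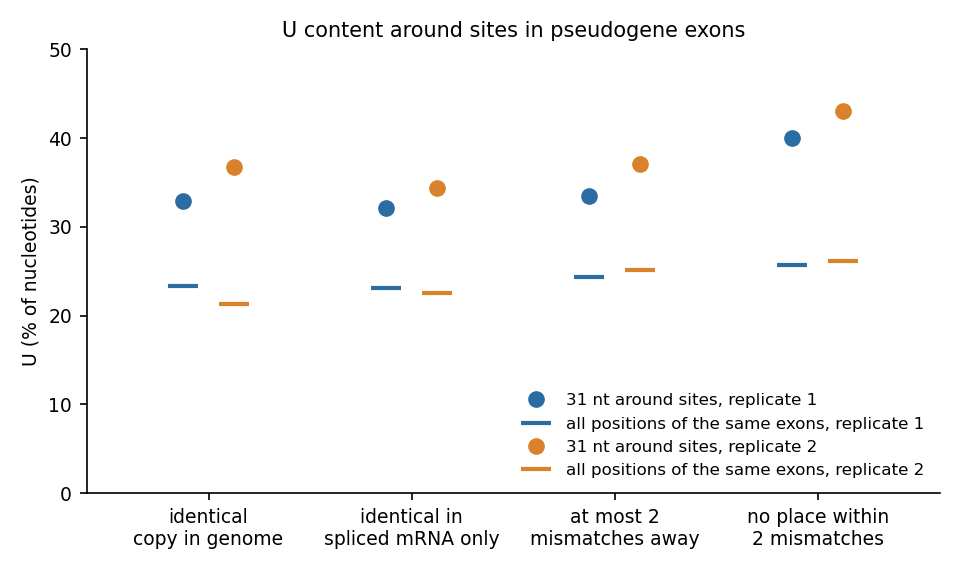
Percent of U (y axis) in the 31 nt around sites (points) and over all positions of the same exons (dashes), by class of the read window (x axis), in replicate 1 (blue) and replicate 2 (orange). Each point lies above its dash, and distinct sites are highest (40.0% and 43.1%).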

How the data were processed

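The authors made the deposited values, signed counts of unique cDNAs for each crosslinked nucleotide (the minus sign marks the minus strand), with the iCount pipeline. Reads were mapped with Bowtie (no version stated) to mm9 with Ensembl release 59, PCR duplicates were collapsed by random barcode bases, and sites with a false discovery rate under 0.05 were kept from 100 permutations with a neighbourhood of 15 nt. No source used here states how reads with several genomic matches were handled. The authors lifted the pooled list to mm10 (GRCm38), row for row. Replicate counts were read at the same mm9 nucleotide in each replicate's own list of significant sites, with 0 for a site not listed. The replicate lists held 639108 and 165081 cDNAs, of which 98.9% and 99.1% were at a pooled site. Depth before site calling is known for the sum only.

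Read windows of 43 nt were searched on both strands of the RefSeq GRCm38 genome and in spliced GENCODE M21 protein-coding transcripts. The search, with up to 2 mismatches and no gaps, was tested on simulated data. Parents were found with blastn 2.17.0 (e-value 1e-05), and the isoform with the best alignment was used. Calculations were made in Python 3.11.15 with pandas 2.3.3, numpy 2.4.6, matplotlib 3.10.9 and scipy 1.17.1. Having 1 group of 2 replicates, the data were described without tests, and shares have exact 95% intervals of counting error.

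Named pseudogenes were the 15 with the most pooled cDNAs, the highest of each type with at least 10 cDNAs and the 10 with the most cDNAs of the distinct class, with their parents and the 8 highest families. Gm4759, Gm4540 and Rps13-ps2 were named after their values were seen. The members, lists and alternatives were chosen with earlier results of these data known. The alternatives were stricter count minimums, other window lengths and mismatches, other coverage limits for parents, other exclusions and leaving out each replicate.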

Additional observations from a re-analysis of the deposited data

How the results depend on the processing

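The shares rest on few and mostly single cDNAs, on a read length taken from the methods and on 2 replicates that differ in depth. Leaving out a replicate gave, as lowest and highest values, a cDNA share of 0.210% and 0.333%, 234 and 1357 sites, 74 and 252 pseudogenes, 6.03% and 8.72% of cDNAs with another identical genomic place, 46.2% and 47.9% identical to a spliced mRNA, a U excess of 10.0 and 13.2 percentage points over the exons, 28.6% and 41.0% of cDNAs on the 10 highest pseudogenes, and 92.2% and 94.96% on pseudogenes with a parent. At sites with at least 2 pooled cDNAs, 518 sites in 201 pseudogenes were left, with 8.31% of cDNAs having another identical place, 50.6% identical to a spliced mRNA and 24.1% of sites in both replicates. With at least 5, these were 70 sites in 35 pseudogenes, 15.2%, 62.1% and 74.3%, the cDNA share was 0.184%, the U excess 14.6 percentage points and the 10 highest pseudogenes held 63.0%. The 5 highest held 17.8% of all.

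Mapping doubt grew as the match was relaxed. The cDNAs with another genomic place rose from 6.13% to 22.9% for a window of 30 nt, 33.8% for 25 nt, 29.2% with at most 1 mismatch and 43.3% with at most 2. The cDNAs matching a spliced mRNA rose from 45.9% to 60.3%, 63.6%, 68.0% and 77.1% under the same settings. The U excess of 9.90 percentage points was 14.4 in 15 nt and 5.95 in 61 nt. Requiring 80% or 30% coverage for a parent gave 92.9% and 94.7% of cDNAs with one, against 94.0%. Leaving out polymorphic pseudogenes, sites on an antisense protein-coding exon, in another non-coding exon or inside a protein-coding gene moved no value beyond the spread between replicates. No paired analysis was possible because the series has a single group.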
